A study of Mus musculus with 72 samples.

Results

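Interferon-stimulated genes were followed through the hypothalamus of mice that lacked 1 of 5 conserved noncoding elements. The members were 9 listed genes, Rsad2, Ifit1, Ifit3, Isg15, Irf7, Oasl2, Usp18, Bst2 and Ifi27 matched by Ensembl identifier to their symbols. All 9 are among the 21749 genes listed in every count table, out of 55401 genes listed in any.

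Type I interferons bind a receptor pair on nearly every cell and activate the JAK kinases. A transcription factor complex that includes IRF9 then enters the nucleus and binds a short DNA element, the interferon-stimulated response element, at the genes studied here. In the uninfected brain a low tonic level of this programme is kept up, with endothelium, microglia and other glia among the cells that carry it.

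The tissue was hypothalamus of adult B6 mice, taken for total RNA sequencing with an Ultra II library kit after RNeasy purification. Each line carried a knockout of 1 of the elements E1 to E5, which had been tied to hibernation, and had its own wild types. The deposited counts of every line are named by the gene symbol Fto together with the element. The labels give neither the position of an element nor a number of founders per line, so the deletion itself could not be checked in the counts. Mice of both genotypes were sampled after 72 h of fasting with water or while fed, which gave 20 groups and 72 libraries. The groups were fasted knockouts, fasted wild types, fed knockouts and fed wild types of E1, E2, E3, E4 and E5. Groups held 4 libraries, except for 3 in fasted E1 wild types, in fasted E2 knockouts and wild types, in all 4 E3 groups and in fasted E4 knockouts. Knockouts and wild types of 1 line and feeding state shared a batch number in the labels, but fasted and fed libraries shared one in E1 and E3 alone. Fasting was therefore tested in E1 and E3. In the other lines a difference between feeding states cannot be told apart from one between batches. Fasted and fed libraries of these lines were not tested against each other. Feeding enters there only through its interaction with genotype. Nothing in the labels says more of how replicates were drawn, so p-values measure the spread between these libraries.

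Depth was 5517552 to 39999368 counts per library. Levels are given as CPM, the count of a gene in a library total scaled to 1000000. By Ddx3y, on the Y chromosome, sex went with the line and not with genotype (69.8 to 136 CPM in E3, at most 0.298 CPM elsewhere). The neuronal marker list summed to 1760 to 4728 CPM in every library. Transcripts of neighbouring tissues were high in some libraries. Choroid plexus and ependymal markers summed to 604 CPM in fed E3 knockout 3 and 456 CPM in fasted E3 wild type 1. They summed to 727 and 164 CPM in fasted E3 knockouts 2 and 3. Pituitary markers such as Gh and Prl summed to 20200 CPM in fasted E5 knockout 3, and fat and fibroblast markers to 6229 and 3403 CPM in fed E2 knockout 3. For several comparisons the members' median estimate is given with and without such libraries.

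The response element was looked for in the promoters, because it is the sequence through which the pathway acts on such genes. RefSeq promoters of the GRCm38.p6 build, running from 250 bases before to 50 after the gene start, were at hand for 7 members, all but Usp18 and Ifi27. The core letters GAAANNGAAA were searched on both strands, where the other strand reads TTTCNNTTTC, and overlapping matches were each counted. Of the 7 promoters, 5 held 10 matches in all, against 3.44% of 32851 mouse promoters with at least 1 match and 0.225% with at least 2. Isg15 had 3 matches, Ifit1, Ifit3 and Bst2 had 2 each, Rsad2 had 1, and Irf7 and Oasl2 had none in this window. The stretches that hold the matches read as follows, 5′ to 3′ on the strand of the gene, with the matching letters in capitals. They lie at chr12:26456543-26456592 for Rsad2, chr19:34640765-34640833 for Ifit1, chr19:34583353-34583436 for Ifit3, chr4:156200855-156200916 for Isg15 and chr8:71537567-71537622 for Bst2. Rsad2, Isg15 and Bst2 are on the minus strand and Ifit1 and Ifit3 on the plus strand.
Rsad2: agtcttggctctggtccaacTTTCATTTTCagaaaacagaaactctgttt
Ifit1: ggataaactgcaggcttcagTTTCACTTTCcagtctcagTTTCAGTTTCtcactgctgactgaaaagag
Ifit3: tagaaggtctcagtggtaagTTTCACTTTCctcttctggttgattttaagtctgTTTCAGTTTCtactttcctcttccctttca
Isg15: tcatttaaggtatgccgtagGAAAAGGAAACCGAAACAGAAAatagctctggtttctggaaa
Bst2: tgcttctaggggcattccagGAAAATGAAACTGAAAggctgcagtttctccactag
In Isg15 and Bst2 the matches overlap into a longer run of GAAA repeats, while in Ifit1 and Ifit3 they stand apart. A match is only a run of letters, and no binding was measured in these libraries.

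The members' genes lie on several chromosomes of the mm10 genome. Rsad2 is at 26442746 to 26456452 on chromosome 12 and Ifi27 at 103434211 to 103440239 on the same chromosome. Ifit3, at 34583531 to 34588731 on chromosome 19, lies beside Ifit1, at 34640871 to 34650009, with the copy Ifit3b at 34607970 to 34613401 between them. Isg15 is at 156199424 to 156200818 on chromosome 4, Oasl2 at 114896936 to 114912234 on chromosome 5, and Usp18 at 121245906 to 121270917 on chromosome 6. Irf7 is at 141262706 to 141266481 on chromosome 7 and Bst2 at 71534255 to 71537456 on chromosome 8. Exons of another gene, on the opposite strand, cover 1.19% of the exon bases of Irf7 and 4.44% of those of Usp18, and none of the others. The strand used in counting is not given in the sources used here, so reads from these overlaps could be counted for either gene. Ifit3 and Ifit3b are near-identical and reads may be divided between them, so Ifit3 was also tested with both counted together.

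All 9 members had counts in all 72 libraries. In CPM per kilobase of exon, which allows genes to be compared, the highest was Ifi27, a small protein of mitochondrial and nuclear membranes, with a median of 6.60. It was followed by Ifit3 at 4.96, Ifit1 at 1.45, Isg15 at 1.27, Bst2 at 1.04, Oasl2 at 0.645, Irf7 at 0.487, Rsad2 at 0.275 and Usp18 at 0.224. Ifit1 and Isg15 were in this order in 48 of 72 libraries, Isg15 and Bst2 in 45, and Rsad2 and Usp18 in 47. The order of these neighbours thus varied between libraries, and their difference was not tested. Ifit3 stood above Ifit1 in 72 of 72. The other neighbours kept their order in 58 to 64 libraries.

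Irf7 is the transcription factor that amplifies interferon production. Its level, in CPM as for every value below, had a lowest, median and highest value of 0.671, 1.84 and 7.12 over the 72 libraries. Its group means spanned a low of 1.12 ± 0.4997 in fed E3 knockouts (SD, n = 3) and a high of 2.97 ± 2.77 in fed E2 knockouts (SD, n = 4). In the group with the highest mean the SD was nearly as large as the mean, since 1 library stood far above the others.

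Rsad2 encodes viperin, an enzyme that makes a chain-terminating nucleotide and blocks viral RNA synthesis. It was at 0.181 to 7.11 CPM with a median of 1.19, and its group mean was lowest in fed E4 knockouts, at 0.668 ± 0.117 (SD, n = 4), and highest in fed E3 wild types, at 4.61 ± 2.17 (SD, n = 3). Ifit1 and Ifit3 encode tetratricopeptide proteins, and that of Ifit1 binds foreign RNA. Ifit1 was at 1.45 to 13.02 CPM with a median of 3.86, and Ifit3 at 3.98 to 19.6 CPM with a median of 8.66. For both, fasted E4 knockouts had the lowest group mean, 1.94 ± 0.715 for Ifit1 and 4.68 ± 0.598 for Ifit3 (SD, n = 3). That group holds the shallowest library, knockout 1, in which Rsad2 and Usp18 had a count of 1 each, so low values there carry a large counting error. Lists of abundant genes were low in that library too. Receptor and JAK-STAT genes summed to 207 CPM there, against 330 and 347 CPM in the other fasted E4 knockouts, and the cause was not tested. Oasl2, a relative of the oligoadenylate synthetases, was at 1.82 to 20.2 CPM with a median of 4.11.

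Isg15 is a ubiquitin-like protein that is joined to other proteins, and Usp18 removes it and also damps signalling at the interferon receptor. Isg15 was at 0.426 to 1.92 CPM with a median of 0.964, the narrowest range of the 9 as a ratio of highest to lowest. Usp18 was at 0.181 to 1.70 CPM with a median of 0.626. Bst2, or tetherin, holds budding viruses at the cell surface. It was at 0.269 to 5.83 CPM with a median of 0.941, and Ifi27 at 3.62 to 79.7 CPM with a median of 9.68. The highest values of Bst2 and Ifi27, and those of Irf7 and Oasl2, came from 1 library, fed E2 knockout 3.

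**Figure D1:**
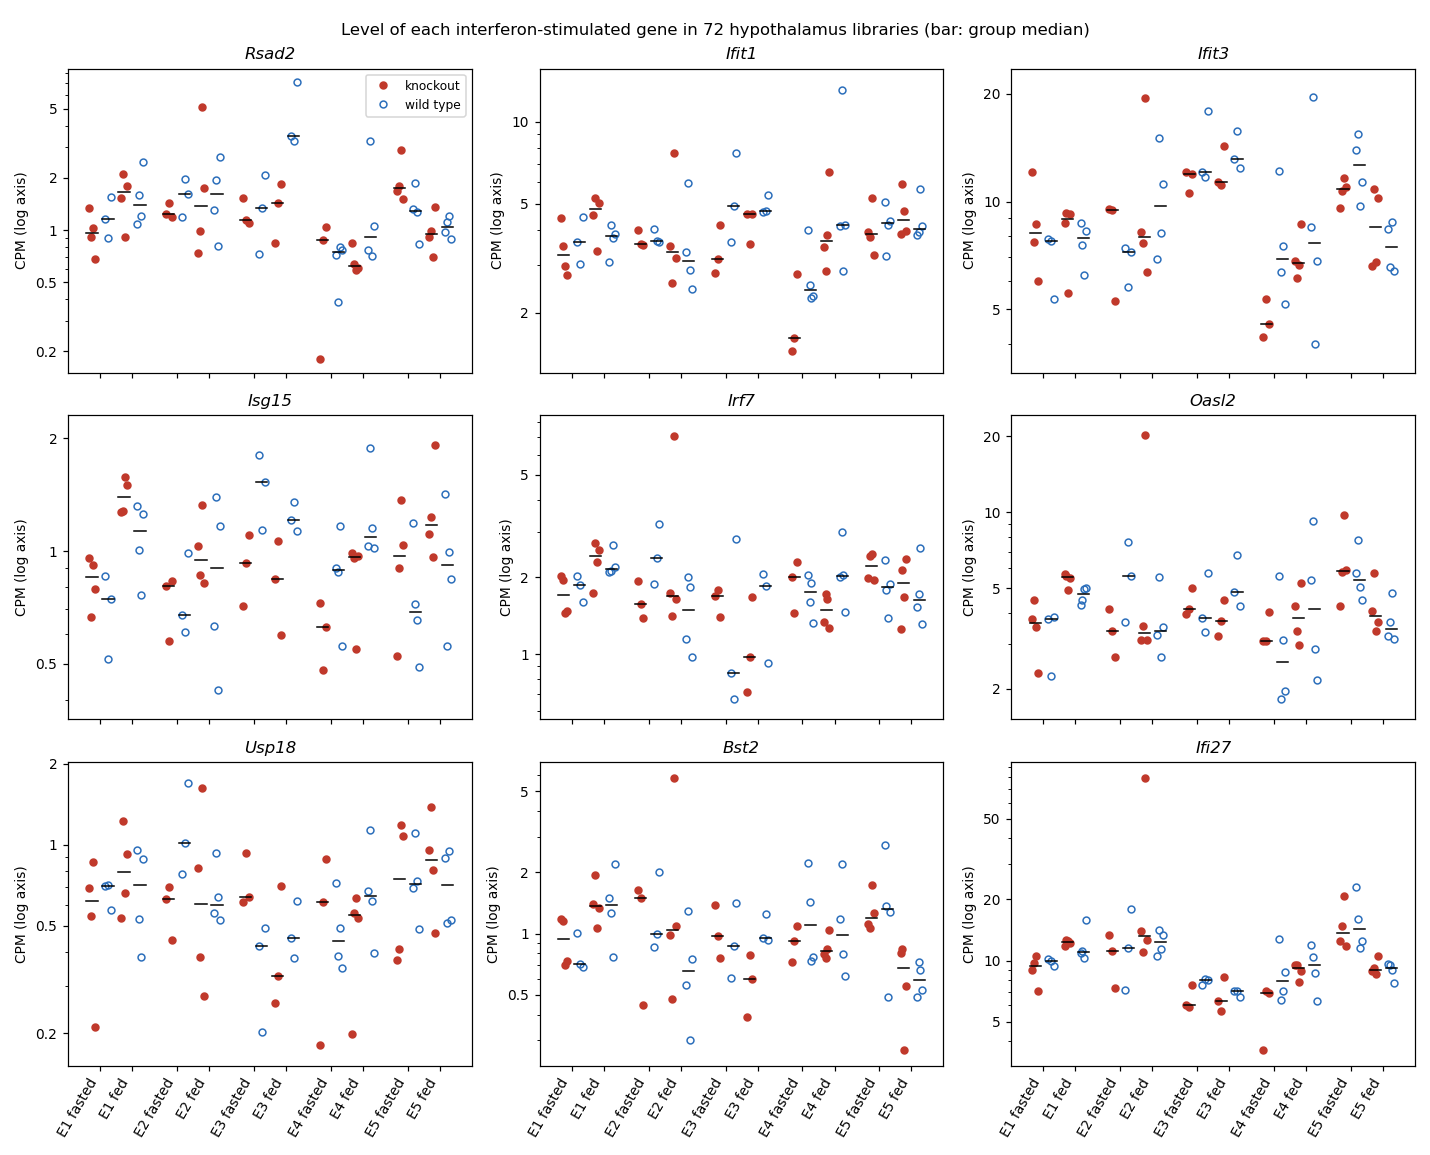
Level of each of the 9 members, as CPM on a log axis, in every library, by line, feeding state and genotype; a point is a library and a bar the group median. Fed E2 knockout 3 and fed E4 wild type 2 stand above their groups in most panels, and Rsad2 in the 3 fed E3 wild types, at 3.25 to 7.11 CPM, stands above the other E3 groups.

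The genes that would drive the programme were at the floor. Of 10 interferon genes on the ligand list, 5 (Ifna4, Ifna5, Ifnk, Ifnl2 and Ifnl3) were listed at 0 in all 72 libraries. Ifng was detected in 31 libraries, Ifna2 in 16, Ifne in 5, Ifnb1 in 4 and Ifna1 in 1, and none exceeded 0.214 CPM. Some genes that brain cells use, among them the microglial genes P2ry12 and Itgam, are also listed at 0 in every library, so a 0 in these tables may reflect the counting.

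The first comparison asked whether the loss of an element changed the members. No member changed with genotype in any of the 10 comparisons by edgeR's quasi-likelihood test at a Benjamini-Hochberg adjusted p under 0.05 over all genes. The background share of all genes called was also 0% in each of the 10, while 2.82% to 17.5% of all genes had an unadjusted p below 0.05. The share of all genes whose groups did not overlap was not counted. Lack of overlap is therefore a description only, here and below. DESeq2 called 1 member, in fed E3 mice. Unadjusted p-values below 0.05 came up for 7 estimates, all of them lower in knockouts, in E2 fasted, E3 fed, E3 fasted and E4 fed. The list's median log2 difference, knockout over wild type, lay between -0.53 and 0.38 over the 10 comparisons, while the median of all genes tested lay between -0.03 and 0.02.

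The largest difference was that of Rsad2 in fed E3 mice. Rsad2 was at 0.840, 1.44 and 1.84 CPM in fed E3 knockouts, against 3.47, 3.25 and 7.11 CPM in fed E3 wild types. Every knockout library was below every wild type library. The log2 difference was -1.76 (SE 0.41, 95% interval -2.68 to -0.84), with an adjusted p of 0.288 by edgeR's quasi-likelihood test. DESeq2 called it, at -1.78 and an adjusted p of 0.00464, in a fit that called 107 of all genes. The authors' deposited edgeR table gives it as 1.76, wild type over knockout, with an unadjusted p of 1.64e-07 and an adjusted p of 0.00296. The unadjusted p by edgeR's quasi-likelihood test here was 0.00189. The deposited p-values were not recomputed, and their test and adjustment may differ from those used here. Rsad2 was the 1 member past 0.05 in the 8 deposited edgeR tables, which do not cover fasted E2 and fasted E5 mice. The estimates were of nearly the same size and differed in whether they were called. Leaving out 1 library at a time gave -2.01 to -1.27.

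After fasting, Rsad2 was at 1.11, 1.53 and 1.14 CPM in E3 knockouts and at 1.34, 2.08 and 0.724 CPM in E3 wild types, and these groups overlapped. Of the 4 E3 groups, the fed wild types alone stood high. Cmpk2, which neighbours Rsad2 and encodes a mitochondrial nucleotide kinase that interferon also induces, was at 13.2 to 21.2 CPM in fed E3 libraries and differed by 0.17 (SE 0.14, adjusted p = 0.714 by edgeR). It was chosen after its values had been seen.

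The other 7 members that could be tested in fed E3 mice also had negative estimates, with an adjusted p of at least 0.288 for all members, and Usp18 did not pass the filter on low counts. The list's median was -0.51. Endothelial markers moved in the same libraries. The list of 10 endothelial genes summed to 122.5, 126.8 and 135.1 CPM in fed E3 knockouts, against 194.4, 177.2 and 221.9 CPM in fed E3 wild types. Of these 10 genes, 10 had negative estimates and 0 were called. Red cell markers (haemoglobin genes and Alas2) summed to 1.81, 0.788 and 4.004 CPM in fed E3 knockouts and to 13.7, 5.04 and 32.8 CPM in fed E3 wild types. Both lists were highest in wild type 3, where Rsad2 was highest too. The microglial list, in which P2ry12 and Itgam are at 0, summed to 198.3 to 238 CPM in fed E3 knockouts and 180 to 213 CPM in fed E3 wild types. Choroid plexus and ependymal markers summed to 604 CPM in fed E3 knockout 3, against 49.4 and 64.7 CPM in the other knockouts. They summed to 45.5 to 52.8 CPM in fed E3 wild types. The part of these cell types in the Rsad2 difference was not tested. In bulk tissue, fewer cells of a type and less RNA per cell cannot be told apart.

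**Figure D2:**
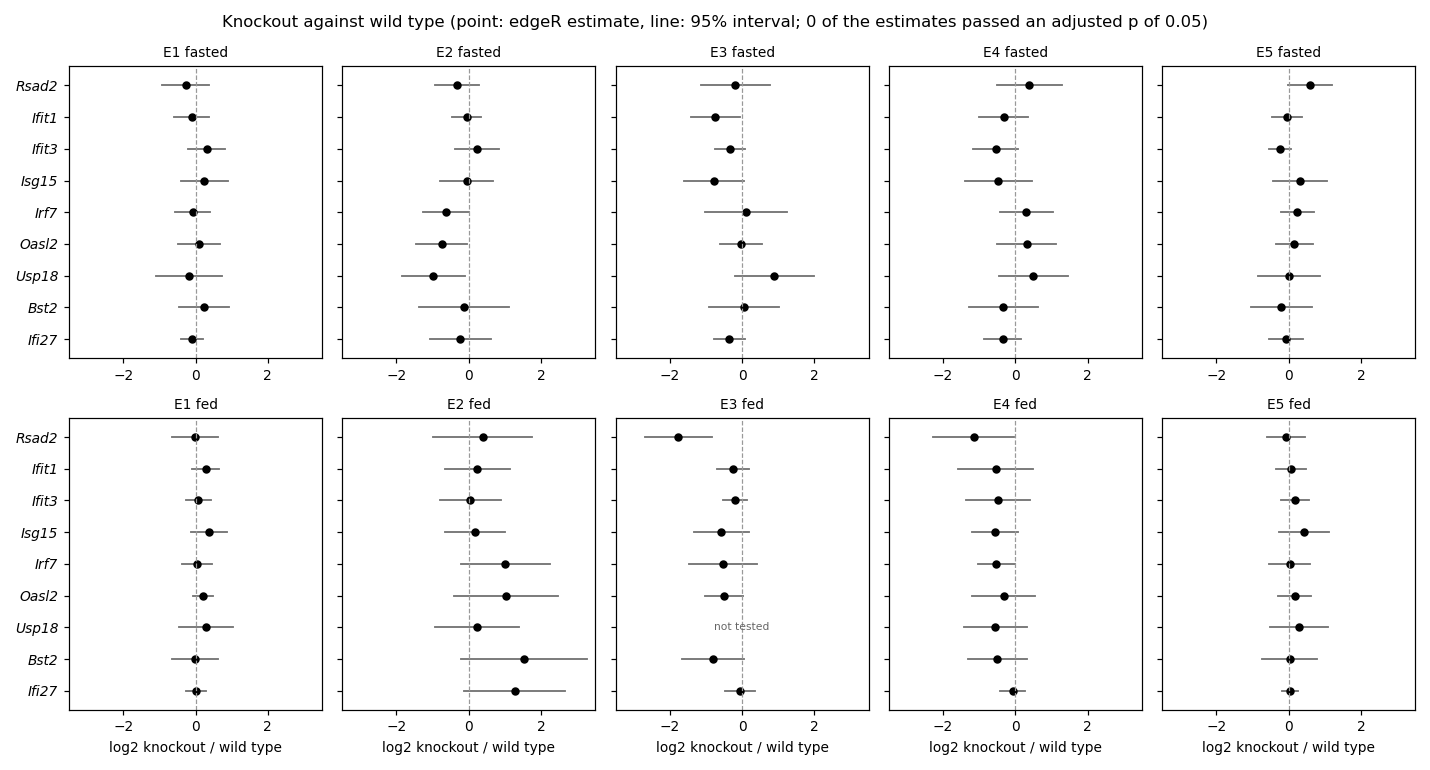
Log2 difference of knockout over wild type for each member, with its 95% interval, in the 10 comparisons by line and feeding state. The estimates are edgeR's, which called none. Rsad2 in fed E3 mice, at -1.76, lies farthest from 0.

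In fasted E2 mice 3 members had unadjusted p-values below 0.05. Usp18 was at 0.632, 0.700 and 0.444 CPM in fasted E2 knockouts, against 0.782, 1.02 and 1.70 CPM in wild types, a log2 difference of -0.99 (SE 0.37). Oasl2 was at 4.14, 3.40 and 2.67 CPM in knockouts, against 3.69, 7.60 and 5.59 CPM in wild types, a log2 difference of -0.75 (SE 0.30). Irf7 was at 1.93, 1.58 and 1.39 CPM in knockouts, against 1.89, 2.37 and 3.21 CPM in wild types, a log2 difference of -0.63 (SE 0.27). The groups did not overlap for Usp18 and overlapped for Oasl2 and Irf7, and the adjusted p by edgeR was 0.660 to 0.666. Pituitary markers separated the same groups. They summed to 14.0, 14.7 and 35.4 CPM in fasted E2 knockouts and to 1287, 12273 and 7176 CPM in fasted E2 wild types, with Tshb and Lhb at 0 in every library. Endothelial genes had a median of -0.40 in this comparison, with 10 of 10 estimates below 0 and 0 called, and summed to 111, 96.7 and 123 CPM in fasted E2 knockouts, against 175, 183 and 115 CPM in wild types. The part of either list in the members' differences was not tested. Wild types 2 and 3, with the most pituitary RNA, also had the highest values of all 3 members. Without these 2 libraries the estimates were -0.41 for Usp18, -0.13 for Oasl2 and -0.22 for Irf7, in a fit with 1 wild type that is assumed to vary like the knockouts. The list's median was then 0.11, with 5 estimates above 0 and 4 below, against -0.23 over all libraries, with 1 above and 8 below.

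Ifit1 in fasted E3 mice was at 4.19, 2.80 and 3.13 CPM in knockouts, against 4.90, 7.66 and 3.62 CPM in wild types. The groups overlapped, and the log2 difference was -0.74 (SE 0.30, adjusted p = 0.269 by edgeR). Fasted E3 wild type 2, the highest for Ifit1, lay above its group's mean for all 9 members and had fibroblast markers at 203 CPM, against 88.5 and 77.7 CPM in the other 2 wild types and 89.0 to 97.8 CPM in the knockouts. Without it the list's median was 0.19, against -0.19 with it.

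In fed E4 mice the 9 estimates were all negative, with a median of -0.53. Rsad2 was at 0.842, 0.638, 0.591 and 0.603 CPM in fed E4 knockouts, against 0.765, 3.27, 0.708 and 1.06 CPM in wild types. The log2 difference of -1.15 (SE 0.50, adjusted p = 0.787 by edgeR) became -0.38 without wild type 2. Irf7 was at 1.34, 1.72, 1.65 and 1.27 CPM in knockouts, against 2.001, 2.99, 2.04 and 1.46 CPM in wild types, a log2 difference of -0.53 (SE 0.23, adjusted p = 0.787 by edgeR). Without wild type 2 the list's median was -0.05, with 3 estimates above 0 and 6 below. Endothelial genes had a median of -0.49, with 10 of 10 estimates below 0 and 0 called, and summed to 97.3 to 157 CPM in fed E4 knockouts and 145 to 219 CPM in fed E4 wild types. Red cell markers had a median of -0.61, with 4 of 4 tested below 0 and 0 called. Their part in the members' estimates was not tested.

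Fed E4 wild type 2 was the highest of the fed E4 libraries for 8 of 9 members, and the members summed to 63.7 CPM there, against 25.5 to 33.8 CPM in the knockouts and 23.7 to 35.6 CPM in the other wild types. Of 42 further interferon-induced genes, 27 were at their highest there. The microglial list, at 158 CPM, lay within the 153 to 182 CPM of the knockouts and the 98.5 to 175 CPM of the other wild types, with 0 of 12 genes highest. The leukocyte list, at 24.9 CPM, lay within the 19.7 to 29.4 CPM of the knockouts, and fat markers were at 14.4 CPM. Red cell markers, at 631 CPM, lay above the 29.5 to 487.8 CPM of the knockouts and the 79.7 to 487.2 CPM of the other wild types. Endothelial markers, at 180 CPM, lay above the 97.3 to 157 CPM of the knockouts and within the 145 to 219 CPM of the other wild types. Fibroblast markers, at 160 CPM, lay above the 116 to 128 CPM of the knockouts and the 90.4 to 138 CPM of the other wild types.

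Fed E2 knockout 3 was the highest of the fed E2 libraries for 8 of 9 members. Ifi27 was at 13.9, 11.0, 79.7 and 12.6 CPM in fed E2 knockouts, against 10.6, 14.2, 11.4 and 13.3 CPM in wild types. Oasl2 was at 3.13, 3.55, 20.2 and 3.13 CPM in knockouts, against 3.27, 5.56, 2.69 and 3.504 CPM in wild types. Apart from knockout 3, the genotypes overlapped for both genes. In that library fat markers summed to 6229 CPM, against 13.1 to 26.2 CPM in the other knockouts and 10.6 to 19.7 CPM in wild types. Fibroblast markers summed to 3403 CPM, against 80.1 to 135 CPM in the other knockouts and 88.3 to 133 CPM in wild types. Leukocyte markers summed to 368 CPM, against 14.6 to 17.7 CPM in the other knockouts and 15.7 to 27.0 CPM in wild types, with 1 of 11 genes at 0 there. Of 42 further interferon-induced genes, 36 were at their highest there. Interferon-gamma targets summed to 352 CPM, against 23.8 to 28.7 CPM in the other knockouts and 22.7 to 49.8 CPM in wild types. Receptor and JAK-STAT genes, at 516 CPM, microglial markers, at 280 CPM, and endothelial markers, at 254 CPM, also lay above the other fed E2 libraries. Inhibitors, at 116 CPM, lay within the 115 to 124 CPM of the other knockouts. The fat list was added after the libraries had been seen. The 9 estimates in fed E2 mice were all positive, with a median of 0.38. Without knockout 3 their median was -0.18, with 4 above 0 and 5 below.

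In the other comparisons the members' estimates lay on both sides of 0. Their medians were 0.08 in E1 fed, -0.08 in E1 fasted, 0.06 in E5 fed, 0.01 in E5 fasted and -0.33 in E4 fasted. Leaving out wild type 1 gave -0.02 in fasted E4 mice, and leaving out knockout 2 gave -0.07. Fasted E4 knockout 3 held pituitary markers at 6906 CPM, and the median without it was -0.36. In fasted E5 mice the members summed to 57.1 CPM in knockout 3, with the pituitary RNA described above, and to 56.1 CPM in wild type 1, where choroid plexus and ependymal markers summed to 3220 CPM, against 65.1 to 88.5 CPM in the other fasted E5 libraries. The other fasted E5 knockouts summed to 36.04 to 41.7 CPM and the other wild types to 35.04 to 49.4 CPM. Wild type 3, with pituitary markers at 4876 CPM, had the lowest of these sums. Without both libraries the list's median was -0.04. Of the other interferon lists (further induced genes, interferon-gamma targets, receptor and JAK-STAT genes, sensors, and inhibitors), edgeR called no gene in a genotype comparison, and 2 to 11 genes of the 70 to 75 tested had an unadjusted p below 0.05. DESeq2 called 1, Trim30a in fasted E3 mice, at -4.24 and an adjusted p of 0.0363, against 0.173 by edgeR. The further induced genes summed to 574 CPM in fasted E3 wild type 3, against 306 and 334 CPM in the other fasted E3 wild types. In fasted E3 knockouts the sum was 292 to 319 CPM. The part of wild type 3 in the Trim30a estimate was not tested.

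The second comparison asked what 72 h of fasting did to the members in E1 and E3. In E1 knockouts 3 members fell, Isg15, Oasl2 and Ifi27, against a background of 34.9% of all 14807 genes called in that fit. In E1 wild types none was called by edgeR or DESeq2 and 2 had an unadjusted p below 0.05 by edgeR, where 5.27% of all genes were called. In E3 wild types Rsad2 fell, with a background of 19.9%, and in E3 knockouts none was called by edgeR or DESeq2, with 0.505%. With both lines and genotypes in a single fit, Rsad2 and Oasl2 fell and the background was 33.1%. The members' shares, 3 of 9 and 2 of 9, were near or under those of all genes.

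Isg15 was at 0.961, 0.667, 0.916 and 0.790 CPM in fasted E1 knockouts, against 1.27, 1.28, 1.58 and 1.505 CPM in fed E1 knockouts. The groups did not overlap, and the log2 difference was -0.76 (SE 0.21, adjusted p = 0.0176 by edgeR). In E1 wild types it was at 0.858, 0.514 and 0.745 CPM when fasted and at 1.32, 1.004, 0.764 and 1.25 CPM when fed, with overlap of 1 fasted library and an estimate of -0.64 (SE 0.30) that was not called. Oasl2 was at 3.79, 4.49, 3.504 and 2.32 CPM in fasted E1 knockouts, against 5.69, 5.58, 4.93 and 5.50 CPM in fed ones, a log2 difference of -0.63 (SE 0.18, adjusted p = 0.0167 by edgeR). In E1 wild types it was at 3.78, 2.25 and 3.84 CPM when fasted and at 4.31, 4.49, 4.97 and 5.02 CPM when fed. These groups did not overlap in either genotype, and the wild type estimate of -0.54 (SE 0.20) had an adjusted p of 0.141 by edgeR. How often all genes separated these groups was not counted. Ifi27 was at 8.97, 9.76, 10.6 and 7.11 CPM in fasted E1 knockouts, against 11.8, 12.6, 12.5 and 12.2 CPM in fed ones, a log2 difference of -0.44 (SE 0.11, adjusted p = 0.0101 by edgeR). In E1 wild types it was at 10.2, 9.96 and 9.40 CPM when fasted and at 10.9, 11.2, 10.3 and 15.9 CPM when fed, again without overlap. The difference between the genotypes was tested as an interaction and was not called for any of these genes.

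Among the other members in E1, Rsad2, Ifit1, Irf7 and Bst2 had negative estimates of -0.69, -0.42, -0.45 and -0.62 in knockouts, with unadjusted p-values of 0.0362 to 0.0486, none called. In E1 wild types all 9 estimates were negative, with Bst2 at -0.86 (SE 0.36). The median was -0.56 in E1 knockouts and -0.34 in E1 wild types, while that of all genes was 0.01 and 0.00. Ifit3 did not follow: its estimate was 0.06 in E1 knockouts, and -0.01 with Ifit3b counted in.

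In E3 another gene was called. The lines E1 and E3 also differ in batch number and, by Ddx3y, in sex. A difference between them cannot be told apart from one of batch or sex. The fall of Rsad2 in wild types, with the values given above, was -1.70 (SE 0.44, adjusted p = 0.0265 by edgeR), and the fasted and fed wild types did not overlap. Isg15, Ifi27, Ifit1 and Ifit3 had positive estimates there of 0.33, 0.24, 0.16 and 0.06, and the median was -0.01. In E3 knockouts no unadjusted p was below 0.05, and the median was 0.11. Rsad2 in that group was -0.15 (SE 0.36, 95% interval -0.97 to 0.67). The call in wild types did not hold when 1 of 3 libraries was left out: the estimate was -1.23 with an adjusted p of 0.115 without fed wild type 3, -1.42 with 0.0711 without fasted wild type 3, and -1.73 with 0.0713 without fasted wild type 1, all by edgeR.

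Over E1 and E3 together, with line and genotype in the model, the estimate of Rsad2 was -0.75 (SE 0.21, adjusted p = 0.00835 by edgeR) and that of Oasl2 -0.34 (SE 0.12, adjusted p = 0.0289 by edgeR). The call of Oasl2 was lost without fasted E1 wild type 2, at -0.29 and an adjusted p of 0.0582, and without fed E3 wild type 2, at -0.30 and 0.0578. All 9 estimates were negative, with a median of -0.18 against 0.02 for all genes.

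**Figure D3:**
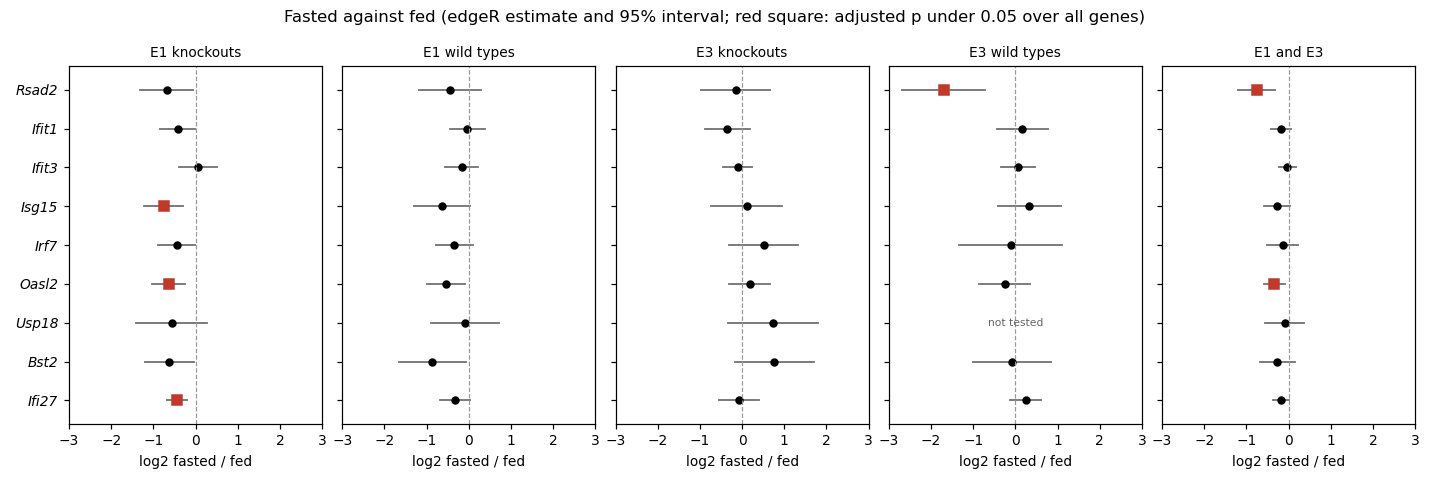
Log2 difference of fasted over fed for each member, with its 95% interval, in E1 knockouts, E1 wild types, E3 knockouts, E3 wild types and both lines together; red squares were called. Isg15, Oasl2 and Ifi27 are called in E1 knockouts, Rsad2 in E3 wild types, and Rsad2 and Oasl2 in the joint fit.

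In the rest of the pathway, the counts stand against the 33.1% of all genes called in the joint fit. Of 36 further interferon-induced genes tested over E1 and E3, 2 fell (Sp100, a nuclear body protein, by 0.52 on the log2 scale, and Adar, an editor of double-stranded RNA, by 0.17) and 1 rose (Lgals3bp, by 0.23). Of 12 interferon-gamma targets, Ciita, the activator of class II antigen presentation genes, fell by 0.60. Of 11 receptor and JAK-STAT genes, Irf9, a DNA-binding subunit of the interferon-activated complex, fell by 0.21. Of 10 sensors and their relays, 3 fell, the adaptor Traf3 by 0.36, the kinase Ikbke by 0.35 and the transcription factor Irf3 by 0.24, and Tlr7, a receptor for single-stranded RNA, rose by 0.77. None of 5 inhibitors was called. In E1 knockouts, with 34.9% of all genes called, 3 of 33 further induced genes fell, among them Oas2 by 0.88, and 3 of 10 sensor genes fell, and of 12 interferon-gamma targets Gbp2, a GTPase, fell by 0.88. In E3 wild types, with 19.9% called, 1 of 34 further induced genes rose (Trim30a, by 4.31 on the log2 scale) and 1 fell (Adar, by 0.46). Fasted wild type 3, with the high sum of further induced genes given above, is in this fit. Its part in the Trim30a estimate was not tested. Of 10 sensor genes in E3 wild types, Tlr7 rose by 1.11 and Traf3 fell by 0.35.

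Cell type markers moved with fasting as well. Of 10 endothelial genes 8 fell in the joint fit, with a list median of -0.49, and 4 of 4 red cell markers tested fell, with a median of -1.48. In E1, endothelial markers summed to 167 to 206 CPM in fasted knockouts and 187.9 to 227 CPM in fed knockouts, and to 138 to 193 CPM in fasted wild types and 119.6 to 188.1 CPM in fed wild types, so these groups overlapped. Red cell markers summed to 183 to 431 CPM in fasted E1 knockouts and 440 to 856 CPM in fed E1 knockouts, without overlap. In E3, endothelial markers summed to 88.0 to 110 CPM in fasted knockouts and 123 to 135 CPM in fed knockouts, and to 72.2 to 117 CPM in fasted wild types and 177 to 222 CPM in fed wild types. Of 10 microglial genes tested 2 rose, of 8 astrocyte genes 3 rose and of 6 neuronal genes 3 rose. In E1 wild types, where all 9 members had negative estimates, 3 of 6 fibroblast genes fell, with a list median of -0.50, and 7 of 7 leukocyte genes had negative estimates, with a median of -0.55 and 0 called. Fibroblast markers summed to 113 to 121 CPM in fasted E1 wild types and 131 to 168 CPM in fed E1 wild types, and leukocyte markers to 16.1 to 17.9 CPM in fasted and 22.4 to 24.4 CPM in fed E1 wild types, both without overlap. In E1 knockouts both lists overlapped between feeding states. Pituitary markers were lower in both genotypes of E1, at 5.42 to 12.2 CPM in fasted and 18.8 to 45.1 CPM in fed libraries, and fat markers higher, at 56.3 to 78.4 CPM in fasted and 12.8 to 31.5 CPM in fed libraries. The part of these lists in the members' differences was not tested.

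The third comparison asked whether fasting acted differently in knockouts. No member was called for the interaction of genotype and feeding in any line by edgeR or DESeq2. In E2, E4 and E5 the batch number changes with feeding, so an interaction with fasting cannot be told apart from one with batch. By edgeR the background was 1.34% of all genes in E3 and 0% in E1, E2, E4 and E5. Unadjusted p-values below 0.05 came up once each in E2, E3 and E4. Rsad2 gave 1.58 (SE 0.61, adjusted p = 0.167 by edgeR) in E3, and 1.53 (SE 0.70, adjusted p = 0.445 by edgeR) in E4. Irf7 in E2 gave -1.64 with an adjusted p of 0.762 by edgeR. The E2 and E4 values take in the single libraries described above. The members' median interaction in E2 was -1.21 over all libraries and -0.23 without fed E2 knockout 3. In E4 the median was 0.21 over all libraries and -0.15 without fed E4 wild type 2, with 4 estimates above 0 and 5 below.

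A further question was whether the members varied together from library to library within their groups. Levels as log2(CPM + 0.5) were set relative to their group mean and correlated over the 72 libraries. All 36 pairs had positive coefficients, with Pearson's r between 0.271 and 0.766 and a median of 0.586. Within-group permutation put 36 pairs past an adjusted p of 0.05 by r and 32 by Spearman's rho, whose median was 0.485. Without the 2 libraries farthest from the median on each x axis, 33 pairs passed, with a median r of 0.467. Oasl2 had the highest median r with the others, at 0.688, and Isg15 the lowest, at 0.326.

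Fed E2 knockout 3 and fed E4 wild type 2 carried part of this. Averaged over the 9 genes, they stood 1.26 and 0.77 log2 units above their groups' means, and without them the median r was 0.374, with 30 of 36 pairs past the test. A further 5 libraries lay above their group means for 9 of 9 members, fed E2 wild type 2 by 0.45, fasted E4 wild type 1 by 0.44, fasted E3 wild type 2 and fasted E5 knockout 3 by 0.38 each, and fed E5 wild type 3 by 0.22. Within the 7 batch numbers the median r was 0.334 to 0.753, and 26 to 36 of 36 pairs were positive, with no test within a batch of 6 to 16 libraries. The batches that hold fed E2 knockout 3 and fed E4 wild type 2 gave medians of 0.753 and 0.644.

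**Figure D4:**
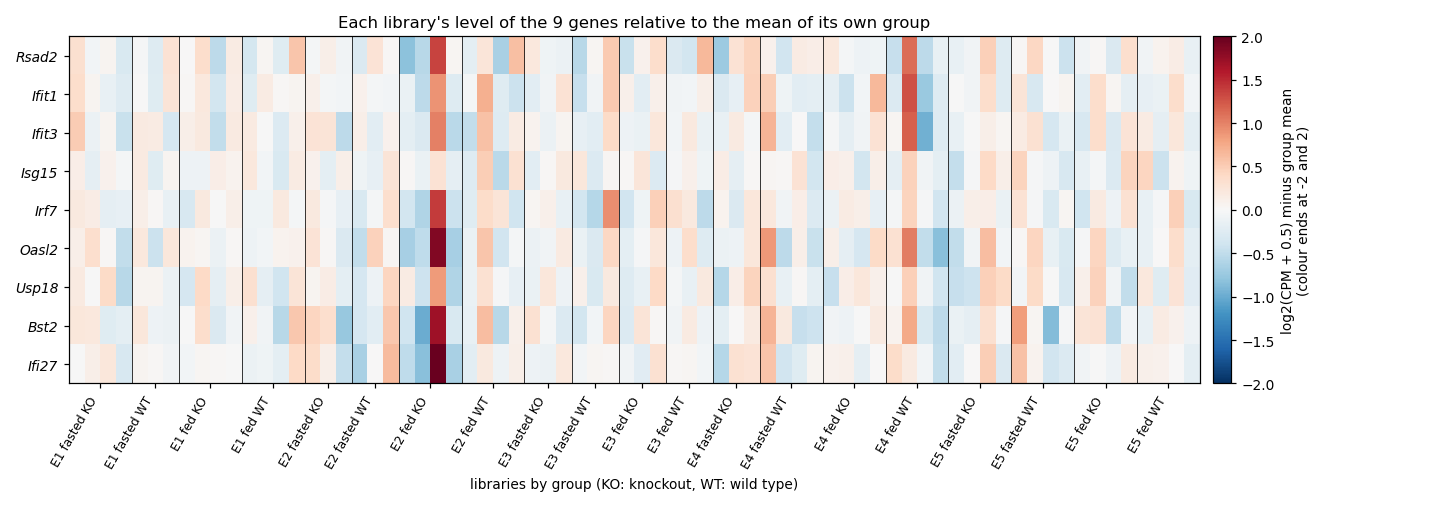
Level of each member in each of the 72 libraries as log2(CPM + 0.5) minus its group mean. Columns in which all 9 genes are high are visible for fed E2 knockout 3 and fed E4 wild type 2, with means of 1.26 and 0.77.

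The genes most like the members were found by Pearson's r with the members' mean centred level, over 72 libraries and 13571 genes of at least 1 CPM on average. The 10 highest were Anxa2 (0.850), H2-Eb1 (0.846), Gsdmd (0.845), H2-K1 (0.841), Gbp2 (0.837), Serping1 (0.836), Col1a2 (0.836), Ifitm3 (0.828), Cd74 (0.827) and Iigp1 (0.826). The median over all genes was 0.127 and the 99th percentile 0.728. H2-K1 is a class I and H2-Eb1 a class II antigen presentation gene, and Cd74 the class II invariant chain. Gbp2 and Iigp1 are GTPases induced by interferon-gamma, and Col1a2 is a collagen of fibroblasts. Without fed E2 knockout 3 and fed E4 wild type 2 the r of these 10 was 0.632 to 0.776, against a 99th percentile of 0.581, and 6 of them were still among the 10 highest. By list, the median r over 70 libraries was 0.64 for interferon-gamma targets, 0.63 for fibroblast genes, 0.49 for further interferon-induced genes, 0.48 for leukocyte genes, 0.42 for microglial genes, 0.07 for endothelial genes and -0.01 for neuronal genes. These are descriptions over libraries that share their depth and dissection.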

How the data were processed

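The authors deposited raw counts per Ensembl gene in 10 tables, 1 per line and feeding state, as whole numbers with no normalization, and every count column was matched to a library. Per the submitters' processing notes HISAT2, Bowtie2, edgeR and the mm10 build were used; versions, the counting tool and the strand are not given in the sources used here. The authors also deposited 8 edgeR tables, from which log2 ratios (wild type over knockout) and p-values were read for comparison only. The members' symbols were those the authors deposited with the edgeR results, and coordinates came from GENCODE M21.

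Tests were run on counts with edgeR 4.0.16 in R 4.3.3 (TMM, quasi-likelihood, filterByExpr keeping genes by a count of 10 and a total of 15), with Benjamini-Hochberg adjustment over all genes and a threshold of 0.05. Genotype was tested within line and feeding state, fasting in E1 and E3, and the interaction within each line. Correlations used log2(CPM + 0.5) and 100000 within-group permutations. Alternatives were DESeq2 1.42.0, RLE, no filter, both feeding states in 1 model, a block for the replicate number, other pseudocounts, and each library left out. The fits were tested on simulated data. Named genes were the 9 members, up to 6 called genes per pathway comparison and direction, and the 10 most like the members; Cmpk2 was added outside this rule after its values had been seen. Members and lists were chosen with earlier results of these data known. No 2 libraries of a group agreed within sampling noise (chi-square per gene at least 2.98 over 96 pairs). For the shallowest library, fasted E4 knockout 1, counting error was a limit, and PCR copies are not independent molecules. Its neuronal markers summed to 1820 CPM, against 2599 and 2674 CPM in the other fasted E4 knockouts. Chi-square per gene against those libraries was 581 and 505. The cause of this difference was not tested.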

Additional observations from a re-analysis of the deposited data

Results flagged for a closer look

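In groups of 4 libraries, 108 sets of 1 member in 1 group were looked at, and in 14 of them the highest or lowest library stood apart from the other 3 by Dixon's criterion. Chance alone flags about 1 in 20. Most belong to 2 libraries. Fed E2 knockout 3 stood apart for Ifit3 (19.5 CPM), Irf7 (7.12 CPM), Oasl2 (20.2 CPM), Bst2 (5.83 CPM) and Ifi27 (79.7 CPM), and fed E4 wild type 2 for Rsad2 (3.27 CPM), Ifit1 (13.02 CPM) and Isg15 (1.89 CPM).

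The others were single genes in a library. Ifit1 was high at 4.03 CPM in fasted E4 wild type 1 and at 5.67 CPM in fed E5 wild type 3. Irf7 was high at 2.68 CPM in fed E1 wild type 3 and Ifi27 at 15.9 CPM in fed E1 wild type 4. Ifit3 was low at 5.54 CPM in fed E1 knockout 3, and Isg15 at 0.549 CPM in fed E4 knockout 3.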

How the results depend on the processing

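Counts of members called kept their value under RLE normalization and without the filter in all 20 comparisons. DESeq2 called 1 member, Rsad2, in fed E3 mice, against 0 by edgeR. With a replicate block the members called in E3 wild types fell to 0, where Rsad2 was -1.67 with an adjusted p of 0.0642 by edgeR, against 1 without it. The numbers were not read as pairs, since same-numbered knockouts and wild types correlated at -0.11 to 0.071 in fed E3, 0.062 to 0.266 in fasted E3, -0.178 to 0.275 in fed E4 and -0.397 to 0.615 in fed E5 mice, and same-numbered fasted and fed E3 wild types at -0.3 to 0.043. For Rsad2 in fed E3 mice the blocked estimate was -1.73 (adjusted p = 0.224 by edgeR). Leaving out 1 library gave 3 to 5 members called in E1 knockouts under fasting, 0 to 1 in E3 wild types and 1 to 2 over both lines. Isg15 in E1 knockouts had an adjusted p of 0.0521 by DESeq2 and of 0.0519 by edgeR without fasted knockout 2. Without fed knockout 3, Rsad2 (-0.89) and Ifit1 (-0.55) were called there too, and Ifit1 (-0.56) also without fasted knockout 1. No member estimate with an unadjusted p below 0.05 changed sign. Leaving out fasted E2 wild types 2 and 3, or fasted E5 knockout 3 and wild type 1, was chosen after the data had been seen and called 0 members.

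Counts over all genes moved more. DESeq2 called 107 genes in fed and 527 in fasted E3 mice, 104 in fasted E2 mice, 18 in fasted E4 mice, 17 in fasted E5 mice, 4, 2 and 1 in fed E4, fasted E1 and fed E5 mice and 0 elsewhere, where edgeR called 0. Both feeding states in 1 model gave 605 in fasted E3 mice, and no filter 169 in fasted E4 mice. The E3 interaction gave 1104 by DESeq2 and 0 with the block. Under fasting, E3 wild types gave 1539 with the block and 902 to 3764 without 1 library, E1 wild types 1453 by DESeq2 and 98 to 2566 without 1 library, against 784, and E3 knockouts 390 by DESeq2, 19 with the block and 0 to 92 without 1 library. Leaving out 1 library gave 0 to 772 in fasted E2 mice, 0 to 23 in fasted E4 mice, 0 to 697 for the E3 and 0 to 28 for the E2 interaction, and at most 1 in the other genotype comparisons. The causes were not tested.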
